A study of Homo sapiens with 6 samples.

Results

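The 10 genes described here encode salt-inducible kinases (SIK1, SIK2, SIK3), CREB-regulated transcription coactivators (CRTC2, CRTC3), transcription factors of the CREB family (CREB1, CREM), cAMP phosphodiesterases (PDE4B, PDE4D) and the coactivator PGC-1alpha (PPARGC1A). They were found by gene name among the 58174 genes of the deposited expression table, and each name matched 1 row. The set was chosen by its FPKM in mimic against NC samples, the same comparison that is described here. RNA came from cells that the labels call Huh-7, a cultured human liver cancer line. The series set 3 samples transfected with miR-27a-3p mimics against 3 samples transfected with a negative control (NC), in a study whose title concerns cisplatin sensitivity; no sample label names a cisplatin treatment. A mimic is a synthetic double-stranded RNA that stands in for the mature microRNA, and what the NC is made of is not stated. Both groups were transfected with the same lipid reagent and taken 48 h later. Nothing in the labels tells whether samples of 1 group came from separate cultures, and p-values therefore speak of the spread among these 6 samples alone, which could be technical.

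cAMP activates protein kinase A (PKA), which phosphorylates CREB on a serine and so lets it recruit the acetylases CREBBP and EP300 at cAMP response elements. Salt-inducible kinases, activated by the tumour suppressor kinase LKB1, phosphorylate CRTC coactivators, which are then held in the cytoplasm by 14-3-3 proteins. PKA phosphorylates and restrains the salt-inducible kinases, so that CRTCs enter the nucleus and bind CREB. SIK1, CREM, PDE4D, PDE4B and PPARGC1A are themselves CREB targets, and several of them act as feedback on the pathway. In hepatocytes CRTC2 and PGC-1alpha drive the fasting programme of glucose synthesis.

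Expression is given as FPKM, fragment numbers per gene length and per sample total, a relative scale. The labelled cell type was checked against 14 hepatocyte markers. Their summed level was 1.00 to 1.38 FPKM in mimic samples and 1.15 to 2.17 FPKM in NC samples, and 13 of the 14 were under 1 FPKM in every sample. APOB, APOH, TTR and GPC3 were listed at 0 in all 6, and ALB and AFP averaged 0 and 0.00932 FPKM in mimic samples and 0.00368 and 0.00790 FPKM in NC samples. The defining markers of the labelled cell type were therefore at or near 0 in both groups, and the cells are called here by their label only. Blood markers were under 1 FPKM in 5 of 5 genes, squamous markers in 3 of 3, endothelial markers in 2 of 3 and fibroblast markers in 3 of 5. COL1A1, a fibrillar collagen gene, averaged 7.99 ± 1.43 FPKM in mimic samples and 17.4 ± 0.408 FPKM in NC samples (SD, n = 3 each). The other fibroblast markers, COL1A2, DCN, LUM and PDGFRB, averaged 0, 0.0195, 0.101 and 0.950 FPKM in mimic samples. In NC samples they averaged 0.00406, 0.0181, 0.0288 and 0.523 FPKM. The mitochondrial share of summed FPKM was 14.6%, 24.3% and 38.9% in mimic samples 1, 2 and 3 and 16.9%, 18.4% and 32.8% in NC samples, so sample 3 was highest in both groups. The part of the markers in the results was not tested.

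The mimic acts through the seed of miR-27a-3p, bases 2 to 8 from its 5′ end, so its sequence is shown first with the seed in capitals (RefSeq, GRCh38.p14; the natural copy lies on chr19:13836447-13836467, minus strand).
miR-27a-3p: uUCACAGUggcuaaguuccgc
For each gene, 1 annotated 3′ UTR (the longest in GENCODE 29) was searched for matches to the seed. An 8mer is ACTGTGAA, a 7mer-m8 is ACTGTGA not followed by A, and a 7mer-A1 is CTGTGAA not preceded by A. SIK1 and CREB1 each held 1 8mer, PDE4D held 1 7mer-m8, and SIK2 and SIK3 each held 1 7mer-A1. CRTC2, CRTC3, CREM, PDE4B and PPARGC1A held none. Of 11465 tested genes with a searched UTR, 6.55% held an 8mer, 12.5% a 7mer-m8, 16.3% a 7mer-A1 and 28.9% any of them. The UTRs of SIK1, CREB1, PDE4D, SIK2 and SIK3 are 2259, 6373, 5626, 6724 and 2241 bases long, against a median of 1328 over those tested genes. Those of CRTC2, CRTC3, CREM, PDE4B and PPARGC1A, without a match, are 434, 3205, 1559, 1901 and 3801 bases long. A longer UTR gives more room for a match, and the part of length here was not tested. The 5 matches are shown in the sense of the mRNA, with the match in capitals, on hg38.
SIK1 8mer, chr21:43416254-43416280, minus strand: ctttaaggaaaACTGTGAActttctgc
CREB1 8mer, chr2:207597211-207597237, plus strand: ttttgcattaaACTGTGAAtgttccaa
PDE4D 7mer-m8, chr5:58972895-58972920, minus strand: agagggttagtACTGTGAtgcatcct
SIK2 7mer-A1, chr11:111728062-111728087, plus strand: agtctcagtccCTGTGAAcagtggct
SIK3 7mer-A1, chr11:116845137-116845162, minus strand: gcattgctcttCTGTGAAagcaaata
A match is a string of letters and not a shown binding site.

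SIK1, PDE4D and PPARGC1A were lowest relative to NC samples, SIK2 and SIK3 were not called, and CRTC2 had the only higher mean. The fit across all genes (limma on log2(FPKM + 0.5), for genes averaging 1 FPKM or more, Benjamini-Hochberg adjusted p under 0.05) called 6 of the 9 tested genes lower and none higher; PDE4B was below the filter. Of all 14439 genes tested, 51.6% were called, 39.6% lower and 12.0% higher. With median-of-ratios scaling 4 of the 9 were lower and 1 higher, where 54.3% of all genes were called, 27.4% lower and 26.9% higher. With quantile normalization 4 were lower and none higher, where 47.7% of all genes were called, 22.8% lower and 24.9% higher. The mimic and NC ranges did not overlap for 8 of the 9, 7 lower and 1 higher, against 44.3% lower and 16.2% higher over all genes. The 10 genes were picked with this comparison already known, so their values are given as a description, without p-values, and nothing is read from the count. Log2 fold changes are mimic minus NC with their standard error (SE). The median over all tested genes was -0.29 as deposited, 0.01 with median-of-ratios scaling and 0.03 with quantile normalization, so a change smaller than about that shift has a direction only on a stated scale. In such bulk samples fewer cells with a transcript and less transcript per cell cannot be told apart.

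**Figure D1:**
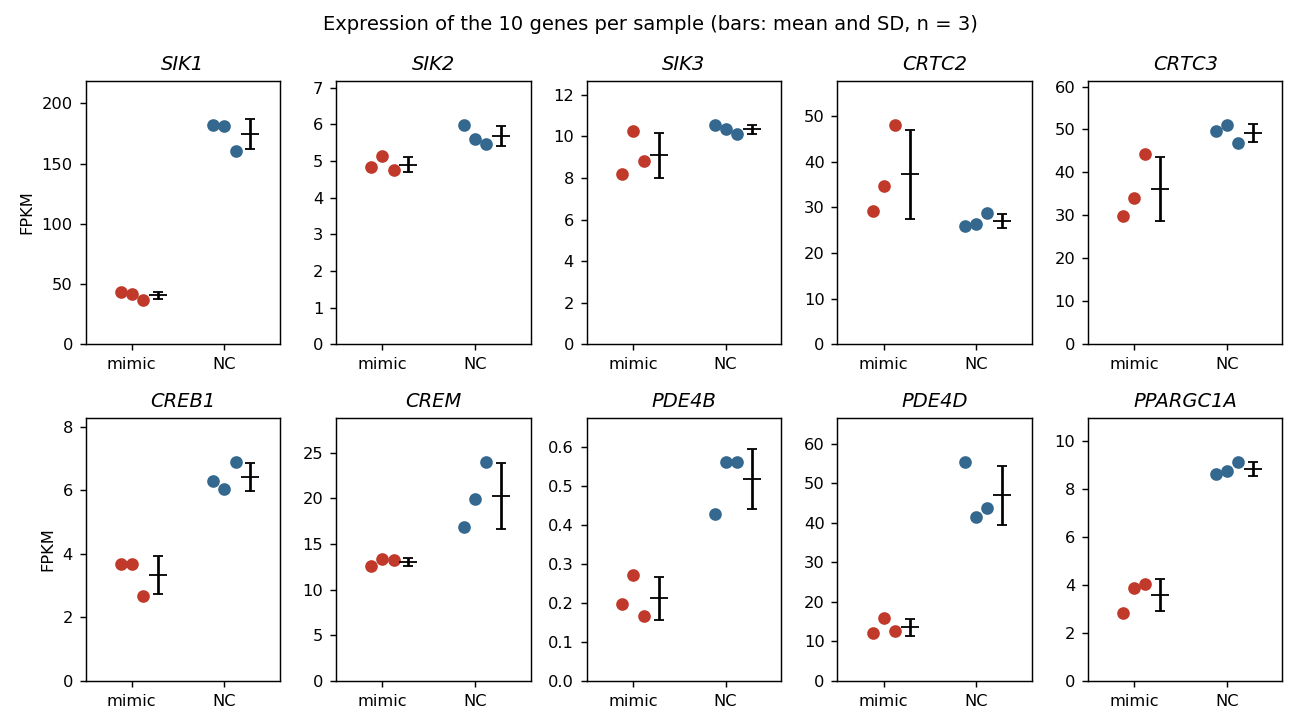
FPKM of each of the 10 genes (vertical axes, each from 0) in the 3 mimic samples (red, left) and the 3 NC samples (blue, right), in sample order from left to right, with the mean and SD beside them. SIK1 lies at 37.0 to 43.0 FPKM in mimic samples and 160.1 to 182.0 FPKM in NC samples, and SIK3 is the gene whose groups overlap.

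SIK1, the inducible member of the kinase family (ENSG00000142178, chromosome 21, 43414515 to 43427128, minus strand, hg38 as listed), was at 43.0, 41.8 and 37.0 FPKM in mimic samples 1, 2 and 3, against 182.0, 181.4 and 160.1 FPKM in NC samples 1, 2 and 3. All mimic samples were far below all NC samples, and the mimic mean was 23.3% of the NC mean. The log2 fold change was -2.09 (SE 0.13), the 282nd lowest of 14439 genes. The annotation lists a near-identical copy of this locus on the same chromosome, SIK1B (ENSG00000275993, listed under a clone name at 6111134 to 6123739, plus strand). Whether these cells carry 2 such loci, or the 2 rows split the reads of 1 gene, was not tested. The 2 annotated transcripts, of 4805 and 4705 bases, were 99.85% identical over their aligned bases, with 7 mismatches, so the assignment of reads between the genes is uncertain. SIK1B was at 49.9, 47.6 and 40.9 FPKM in mimic samples and 155.5, 151.9 and 134.0 FPKM in NC samples. The ratio of SIK1 to SIK1B was 0.882 ± 0.0230 in mimic samples and 1.19 ± 0.0137 in NC samples (SD, n = 3 each), so the 2 rows did not move by quite the same factor. Summed, they held 86.7 ± 7.84 FPKM in mimic samples and 321.7 ± 24.0 FPKM in NC samples, a log2 fold change of -1.89, which is smaller than that of the SIK1 row alone.

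SIK2, first described as a kinase of adipose tissue (ENSG00000170145, chromosome 11, 111602391 to 111730853), was at 4.82, 5.15 and 4.74 FPKM in mimic samples, against 5.99, 5.59 and 5.46 FPKM in NC samples. The groups lay close together without overlapping, and the log2 fold change of -0.19 (SE 0.12) was not called. SIK3, the broadly expressed member (ENSG00000160584, chromosome 11, 116843402 to 117098437), was at 8.17, 10.3 and 8.82 FPKM in mimic samples and 10.6, 10.3 and 10.1 FPKM in NC samples. Its groups overlapped, and its log2 fold change of -0.18 (SE 0.13) was not called. Both signs turned on the other scales, to 0.10 for SIK2 and 0.13 for SIK3 after median-of-ratios scaling and to 0.23 and 0.11 after quantile normalization, again without a call. SIK2 overlaps PPP2R1B, on the opposite strand, from 111726908 to 111730853. No source used here gives the strand setting of the counting, so reads of the 2 genes in that stretch cannot be told apart.

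Ratios within a sample do not depend on how whole samples are scaled. SIK1 made up 76.8%, 73.0% and 73.2% of the summed FPKM of the 3 kinases in mimic samples, and 91.7%, 91.9% and 91.1% in NC samples. With SIK1B added the shares were 86.1% ± 1.44 in mimic samples and 95.2% ± 0.245 in NC samples (SD, n = 3 each). SIK1 remained the most abundant of the 3 in every sample, at 4.07 to 5.26 times SIK3 in mimic samples and 15.8 to 17.5 times SIK3 in NC samples. The ratio of SIK3 to SIK2 was 1.85 ± 0.151 in mimic samples and 1.82 ± 0.050 in NC samples, a difference smaller than the spread between samples.

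The coactivator genes had fold changes of opposite sign on the deposited scale. CRTC3 (ENSG00000140577, chromosome 15, 90529925 to 90645345) was at 29.7, 34.2 and 44.4 FPKM in mimic samples, against 49.5, 51.1 and 46.9 FPKM in NC samples. Mimic sample 3 came close to the lowest NC sample, and the log2 fold change of -0.46 (SE 0.16) was called lower on the deposited scale. That call was lost in 9 of 16 alternatives, among them median-of-ratios scaling (-0.14), quantile normalization (-0.46), leaving mitochondrial genes out of each total (-0.44) and leaving out mimic sample 1 or 2 or any 1 NC sample. CRTC2, the main CRTC of the liver's fasting response (ENSG00000160741, chromosome 1, 153947669 to 153958625), was at 29.2, 34.6 and 48.1 FPKM in mimic samples and 26.0, 26.3 and 28.8 FPKM in NC samples. The groups did not overlap, but mimic sample 1 lay close to NC sample 3. Its log2 fold change of 0.43 (SE 0.19) was not called. In 3 of 16 alternatives CRTC2 was called higher. These were median-of-ratios scaling (0.75), leaving out mimic sample 1 (0.59) and a fit with the sample number as a replicate block. Both coactivators were highest among mimic samples in sample 3, which also had the highest mitochondrial share. Leaving mitochondrial genes out of each total gave log2 fold changes of 0.45 for CRTC2 and -0.44 for CRTC3, neither of them called. The part of the mitochondrial share in these values was not tested.

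The ratio of CRTC2 to CRTC3 was 0.981, 1.01 and 1.08 in mimic samples, against 0.525, 0.515 and 0.614 in NC samples. The 2 genes were about equal in mimic samples, and CRTC3 was the more abundant in every NC sample. CRTC1, the third coactivator gene, had 8.06 ± 2.41 FPKM in mimic samples and 5.18 ± 0.212 FPKM in NC samples (SD, n = 3 each; log2 fold change 0.55, SE 0.21, limma adjusted p = 0.0581; called higher after median-of-ratios scaling and after quantile normalization) and was named here after its values were seen.

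**Figure D2:**
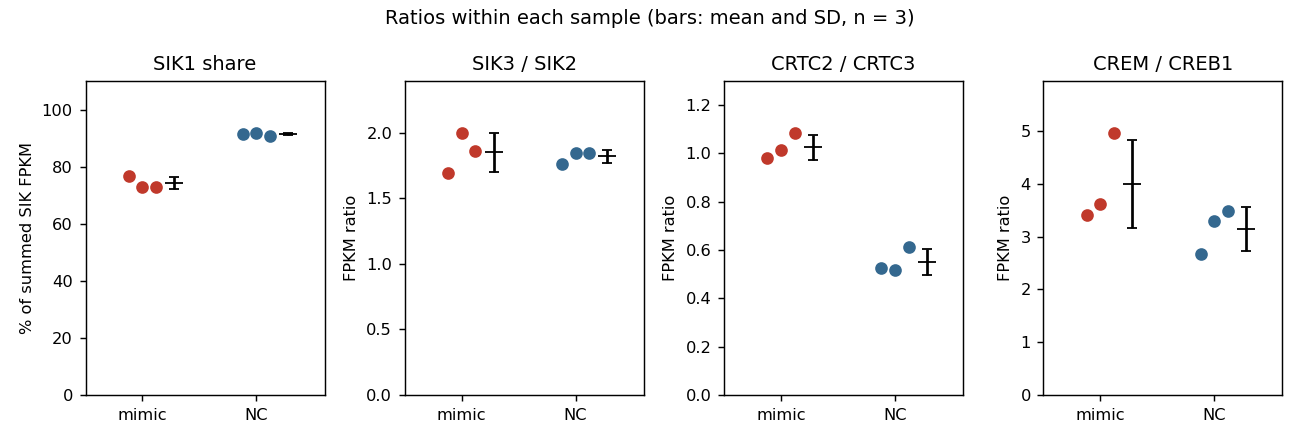
Ratios formed within each sample for 3 mimic samples (red, left) and 3 NC samples (blue, right), with mean and SD; the first panel is the percentage of summed SIK FPKM from SIK1, the others are FPKM ratios. The SIK1 share and the CRTC2 to CRTC3 ratio separate the groups, and the SIK3 to SIK2 and CREM to CREB1 ratios overlap.

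CREB1, the factor that gives the pathway its name (ENSG00000118260, chromosome 2, 207529737 to 207603431), was at 3.68, 3.69 and 2.66 FPKM in mimic samples and 6.30, 6.04 and 6.91 FPKM in NC samples. Every mimic sample was below every NC sample, and mimic sample 3 was the lowest. CREB1 fell by 0.86 on the log2 scale (SE 0.16), and was called lower in all 15 alternatives in which it was tested, with log2 fold changes of -0.93 to -0.40. METTL21A overlaps it on the opposite strand from 207580631 to 207603431. With the strand setting of the counting unknown, reads of the 2 genes in that stretch cannot be told apart. METTL21A had 6.24, 8.17 and 5.07 FPKM in mimic samples and 8.42, 12.1 and 7.60 FPKM in NC samples (log2 fold change -0.49, SE 0.22, limma adjusted p = 0.0909).

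CREM, whose products include activators, repressors and the inducible repressor ICER made from an internal start (ENSG00000095794, chromosome 10, 35126791 to 35212958), was at 12.5, 13.4 and 13.2 FPKM in mimic samples and 16.9, 19.9 and 24.0 FPKM in NC samples. Mimic samples were tight and NC samples spread, with no overlap. CREM was called lower on the deposited scale (-0.60, SE 0.15), but not after median-of-ratios scaling (-0.29), after quantile normalization (-0.43) or without sample 3 of both groups, which was left out after seeing the data. The ratio of CREM to CREB1 was 4.0 ± 0.840 in mimic samples and 3.15 ± 0.419 in NC samples, and the groups overlapped. One value per gene cannot separate ICER from the longer products.

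The internal start of CREM is shown because it holds the full cAMP response element, TGACGTCA, in capitals (RefSeq, GRCh38.p14, chr10:35195652-35195951, plus strand, 250 bases before to 50 after the start; the element begins 50 bases before the start).
CREM internal start: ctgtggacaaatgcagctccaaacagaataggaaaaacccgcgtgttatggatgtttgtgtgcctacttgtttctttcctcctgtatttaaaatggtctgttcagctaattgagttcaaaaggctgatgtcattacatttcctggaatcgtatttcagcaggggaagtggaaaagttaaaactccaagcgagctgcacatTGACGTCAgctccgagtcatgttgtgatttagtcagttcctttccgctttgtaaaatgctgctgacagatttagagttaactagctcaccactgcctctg
Windows of the same length were searched for the full element and for the short element TGACG, read on either strand as TGACG or CGTCA; each full element holds 1 short element per strand, which overlap. The 28 windows of the 9 genes with a window held the full element in 2. These belong to neighbouring internal starts of CREM and share the same element. It was in 1.85% of all 35116 windows and 2.96% of the windows of tested genes. At least 1 short element was in 9 of the 28 windows, 32.1%, against 24.6% of all windows and 32.6% of the windows of tested genes. Counted by gene, 7 of the 9 held a short element in any window, or 77.8%. That stands against 28.4% of all genes with a window and 41.4% of tested genes with one. The short element holds CG, and the single windows of SIK1, SIK2, SIK3 and CRTC3 were 82.3%, 77.7%, 77.3% and 80.7% G or C. The median was 65.0% over windows of tested genes and 52.5% over the 28 windows. The part of base content was not tested. SIK1, CREM, PDE4D, PDE4B and PPARGC1A were also in the set as known CREB targets. A gene with more windows has more room for a short element. The SIK1 window held 3, those of SIK2 and SIK3, which were not called, held 2 each, and PDE4D had 1 in only 1 of its 8 windows. The SIK1 window, which holds the most, is shown with them in capitals (chr21:43427082-43427381, minus strand).
SIK1 start: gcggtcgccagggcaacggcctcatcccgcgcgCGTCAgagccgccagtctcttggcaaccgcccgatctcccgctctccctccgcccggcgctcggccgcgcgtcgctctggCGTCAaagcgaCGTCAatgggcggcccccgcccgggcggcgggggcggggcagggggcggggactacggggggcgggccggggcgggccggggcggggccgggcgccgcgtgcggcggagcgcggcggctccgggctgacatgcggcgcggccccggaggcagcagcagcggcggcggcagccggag
These words say what letters are present, not what binds.

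PDE4 enzymes break down cAMP and are the targets of rolipram-type inhibitors. PDE4D (ENSG00000113448, chromosome 5, 58969038 to 60522120) was at 12.1, 15.9 and 12.6 FPKM in mimic samples and 55.4, 41.4 and 43.8 FPKM in NC samples. The groups were far apart and the mimic mean was 28.9% of the NC mean. PDE4D fell by 1.75 on the log2 scale (SE 0.17) and was called lower in all 16 alternatives, from -1.87 to -1.43. Of the 11 genes listed as overlapping it none reached a mean of 1 FPKM. PDE4B (ENSG00000184588, chromosome 1, 65792514 to 66374579) was at 0.197, 0.273 and 0.166 FPKM in mimic samples and 0.428, 0.563 and 0.561 FPKM in NC samples. Its groups did not overlap, but at a mean below 1 FPKM it was left out of the test. PDE4D exceeded PDE4B by 58.4 to 75.8 times in mimic samples and by 73.5 to 129.4 times in NC samples.

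PPARGC1A, the coactivator of mitochondrial and fasting genes (ENSG00000109819, chromosome 4, 23755041 to 23904089), was at 2.82, 3.85 and 4.05 FPKM in mimic samples and 8.60, 8.73 and 9.13 FPKM in NC samples. The groups did not overlap, and NC samples were within 1 FPKM of each other. PPARGC1A fell by 1.21 on the log2 scale (SE 0.16), to 40.5% of the NC mean, and was called lower in all 16 alternatives (-1.30 to -0.79). Its relative PPARGC1B was below the filter, at 0.688, 0.358 and 0.613 FPKM in mimic samples and 0.923, 0.796 and 1.24 FPKM in NC samples.

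**Figure D3:**
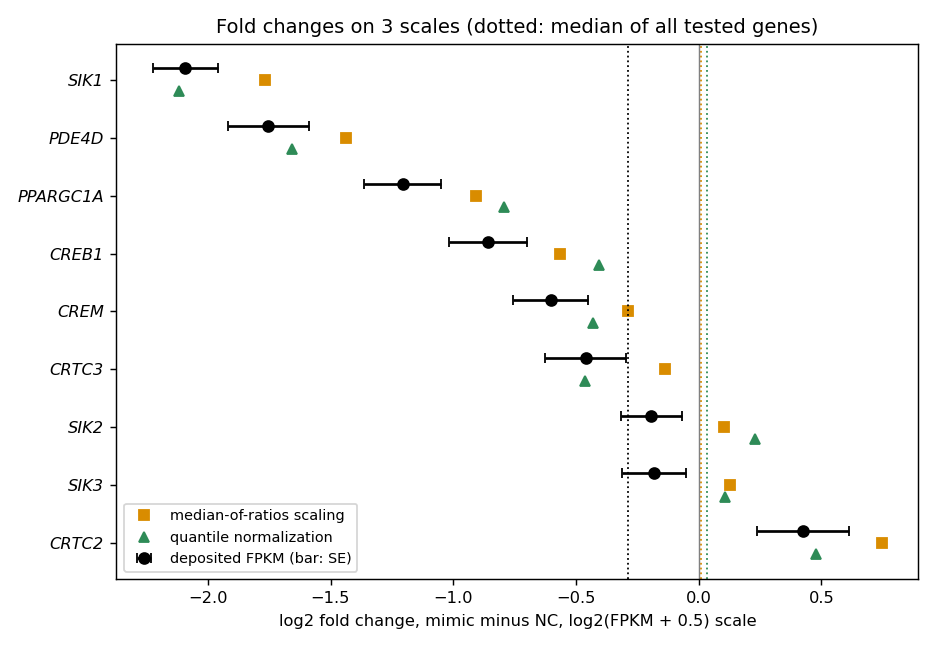
Log2 fold change, mimic minus NC, of the 9 tested genes (horizontal axis; rows are genes) on the deposited scale with its SE, after median-of-ratios scaling and after quantile normalization; dotted lines mark the median of all tested genes on each scale. SIK1, PDE4D, PPARGC1A and CREB1 lie below 0 on all 3 scales, and SIK2 and SIK3 lie on either side of 0.

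FPKM is per length, so levels can be ranked between genes. In mimic samples SIK1, CRTC2 and CRTC3 came first with overlapping ranges (means 40.6, 37.3 and 36.1 FPKM), then PDE4D and CREM, also overlapping (13.5 and 13.0 FPKM), then SIK3, SIK2, PPARGC1A and CREB1, and last PDE4B at 0.212 FPKM. PPARGC1A and CREB1 overlapped there as well. The place of SIK1 among them rests on the split of reads with SIK1B, since summed with it SIK1 was at 77.9 to 92.9 FPKM, above both coactivator genes. In NC samples SIK1 stood alone at a mean of 174.5 FPKM, followed by CRTC3 and PDE4D with overlapping ranges (49.2 and 46.9 FPKM), and then by CRTC2, CREM, SIK3, PPARGC1A, CREB1, SIK2 and PDE4B, each range apart from the next. PDE4D, 3rd in NC samples, was 4th in mimic samples, below both coactivator genes.

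Profiles over the 6 samples were compared by Euclidean distance of log2(FPKM + 0.5) after centring each gene. Among 11570 other tested protein-coding genes the nearest to SIK1 were the laminin subunit gene LAMA3 (distance 0.115), LSMEM2 (0.153) and WDR27 (0.184). LAMA3 was at 2.19, 2.0 and 1.67 FPKM in mimic samples and 10.4, 9.93 and 8.47 FPKM in NC samples. Nearest to CRTC2 were RAB3A, a small GTPase gene of vesicle release (0.144), the transcription factor gene SP2 (0.190) and UPF3B, a factor of nonsense-mediated decay (0.209).

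Genes that overlap the members may share reads with them, so their values are not independent of the members. Of 31 such genes 25 had a mean under 1 FPKM and 6 were tested, of which 3 were lower and none higher, where 39.6% of all genes were lower. All 3 lie in CREM or CRTC3. ENSG00000269952, sense intronic in CREM, was at 0.811, 0.946 and 0.412 FPKM in mimic samples and 1.75, 2.52 and 1.97 FPKM in NC samples (log2 fold change -1.09, SE 0.22, limma adjusted p = 0.00369). ENSG00000259212, antisense in CRTC3, was at 0.977, 0.703 and 0.393 FPKM in mimic samples and 4.53, 3.46 and 4.96 FPKM in NC samples (-2.03, SE 0.22, limma adjusted p = 0.000209). The pseudogene HSPE1P3, on the strand of CRTC3, fell by 1.59 (SE 0.24, limma adjusted p = 0.000988). These falls were larger than those of CREM and CRTC3 themselves, which are -0.60 and -0.46; the difference was not tested.

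The other genes of the pathway were taken as lists by their textbook role, but with earlier results of these data known. Their counts are therefore given as a description. Of 14 other cAMP phosphodiesterases listed, 8 were tested, of which 6 fell and 1 rose (6 and 2 with median-of-ratios scaling), against 39.6% and 12.0% of all genes (27.4% and 26.9%), with a median log2 fold change of -0.79 against -0.29 over all genes. PDE10A was at 2.86, 4.09 and 3.34 FPKM in mimic samples and 13.8, 12.0 and 12.8 FPKM in NC samples (-1.77, SE 0.15, limma adjusted p = 8.56e-05). PDE4C fell by 1.39 (SE 0.16) to 0.419 ± 0.0406 FPKM in mimic samples, against 1.91 ± 0.298 in NC samples, and PDE7A, which is specific for cAMP, fell by 1.17 (SE 0.14). PDE1A, a calcium and calmodulin dependent enzyme, went the other way, at 3.50, 3.10 and 3.27 FPKM in mimic samples and 0.812, 0.780 and 0.945 FPKM in NC samples (1.49, SE 0.15, limma adjusted p = 0.000132). The higher PDE1A had no overlap with NC samples and was called in all 15 alternatives in which it was tested. Without mimic sample 1 the list's higher count was 2.

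In the list of cAMP production and PKA, 6 of 21 tested genes were lower and 5 higher, and median-of-ratios scaling gave 2 lower and 6 higher. Both lower counts were below the 39.6% and 27.4% of all genes. The higher counts stood against 12.0% and 26.9% of all genes. The median log2 fold change was -0.24, close to the -0.29 over all genes. Of the 4 genes for regulatory subunits of PKA 2 were higher, PRKAR1A was not called (-0.17) and PRKAR2B was under the filter, at 0.0171, 0.0198 and 0.0555 FPKM in mimic samples and 0.164, 0.143 and 0.122 FPKM in NC samples. PRKAR1B was at 19.2, 13.5 and 12.9 FPKM in mimic samples and 6.18, 6.42 and 5.62 FPKM in NC samples (1.23, SE 0.17, limma adjusted p = 0.000627), and PRKAR2A rose by 0.74 (SE 0.15, limma adjusted p = 0.00439). Of 7 genes for scaffolds that tether PKA, 3 fell, 1 rose and 3 were not called. The scaffold genes AKAP9 (-0.92, SE 0.13, limma adjusted p = 0.000706) and AKAP11 (-0.82, SE 0.16, limma adjusted p = 0.00308) fell, AKAP11 without a call after quantile normalization. AKAP13 was called lower as deposited (-0.51, limma adjusted p = 0.0496) but on neither other scale, and AKAP1 rose by 0.63 (SE 0.19, limma adjusted p = 0.0238); these and the subunits PRKAR1A and PRKAR2B are named outside the rule. Counts of this list depend on single libraries, since without NC sample 1 only 2 were lower and without mimic sample 2 only 3 were lower and 2 higher. Without mimic sample 3 or NC sample 2 the lower count was 3, and without NC sample 3 the higher count was 3.

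Of 15 tested genes of the LKB1 complex and its AMPK-related kinases, 10 fell and 1 rose, against 39.6% and 12.0% of all genes. The list's median was -0.67 on the log2 scale, against -0.29 over all genes. Median-of-ratios scaling gave 6 lower and 4 higher, against 27.4% and 26.9% of all genes. Quantile normalization gave 4 and 4, against 22.8% and 24.9% of all genes. Without mimic sample 1 the higher count was 2. PRKAA2, a catalytic subunit of AMPK, was at 4.29, 5.58 and 4.29 FPKM in mimic samples and 14.0, 12.6 and 12.5 FPKM in NC samples (-1.38, SE 0.15, limma adjusted p = 0.000180). The other catalytic subunit, PRKAA1, fell by 0.85 (SE 0.15), NUAK2 by 0.78 (SE 0.14) and BRSK1 by 0.91 (SE 0.15), the last of them not called after quantile normalization. The gene that rose was MARK2, by 0.80 (SE 0.19, limma adjusted p = 0.00776), also called higher on both other scales. NUAK1, MARK4 and BRSK2 were called higher after median-of-ratios scaling and quantile normalization but not as deposited. MARK2, NUAK1, MARK4 and BRSK2 are named outside the rule. STK11, which encodes LKB1, had 1.35 ± 0.501 FPKM in mimic samples and 1.66 ± 0.185 FPKM in NC samples (SD, n = 3 each; limma adjusted p = 0.345) and is named outside the rule.

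Among 16 genes for substrates of salt-inducible kinases and regulators of CRTCs, 4 were higher and none lower. Of all genes 12.0% were higher and 39.6% lower. After median-of-ratios scaling 8 were higher and none lower, where 26.9% of all genes were higher and 27.4% lower. The list's median log2 fold change was 0.10, against -0.29 over all genes. Without NC sample 3 the higher count was 2. Of 7 genes for 14-3-3 proteins, YWHAQ, SFN and YWHAE were higher and YWHAB (0.09), YWHAG (0.37), YWHAH (0.90) and YWHAZ (-0.04), named outside the rule, were not called. YWHAG and YWHAH were called higher after median-of-ratios scaling. YWHAQ was at 219.9, 205.5 and 170.5 FPKM in mimic samples and 106.9, 120.4 and 95.8 FPKM in NC samples (0.88, SE 0.16, limma adjusted p = 0.00226). SFN had 343.0 ± 6.12 FPKM in mimic samples and 211.1 ± 8.69 FPKM in NC samples (0.70, SE 0.13), and YWHAE rose by 0.60 (SE 0.19, limma adjusted p = 0.0262). HDAC5, a class IIa histone deacetylase that these kinases phosphorylate, rose by 0.43 (SE 0.14, limma adjusted p = 0.0303). The YWHAE call was lost in 7 of 16 alternatives and the HDAC5 call in 6.

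In the list of other CREB family factors and coactivators 4 of 12 tested genes fell and none rose (4 and 2 after median-of-ratios scaling), against 39.6% and 12.0% of all genes (27.4% and 26.9%). Their median was -0.24 on the log2 scale, against -0.29 over all genes. CREBRF, a regulator of CREB3, was at 1.57, 1.97 and 1.32 FPKM in mimic samples and 6.01, 4.80 and 5.59 FPKM in NC samples (-1.50, SE 0.17, limma adjusted p = 0.000231). CREBZF (-1.16, SE 0.25), CREB5 (-0.83, SE 0.18) and ATF2 (-0.81, SE 0.16) also fell, CREB5 without a call after quantile normalization. Without mimic sample 1 or mimic sample 3 the higher count was 1. The acetylases CREBBP and EP300 had log2 fold changes of 0.10 and -0.04 and were not called.

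**Figure D4:**
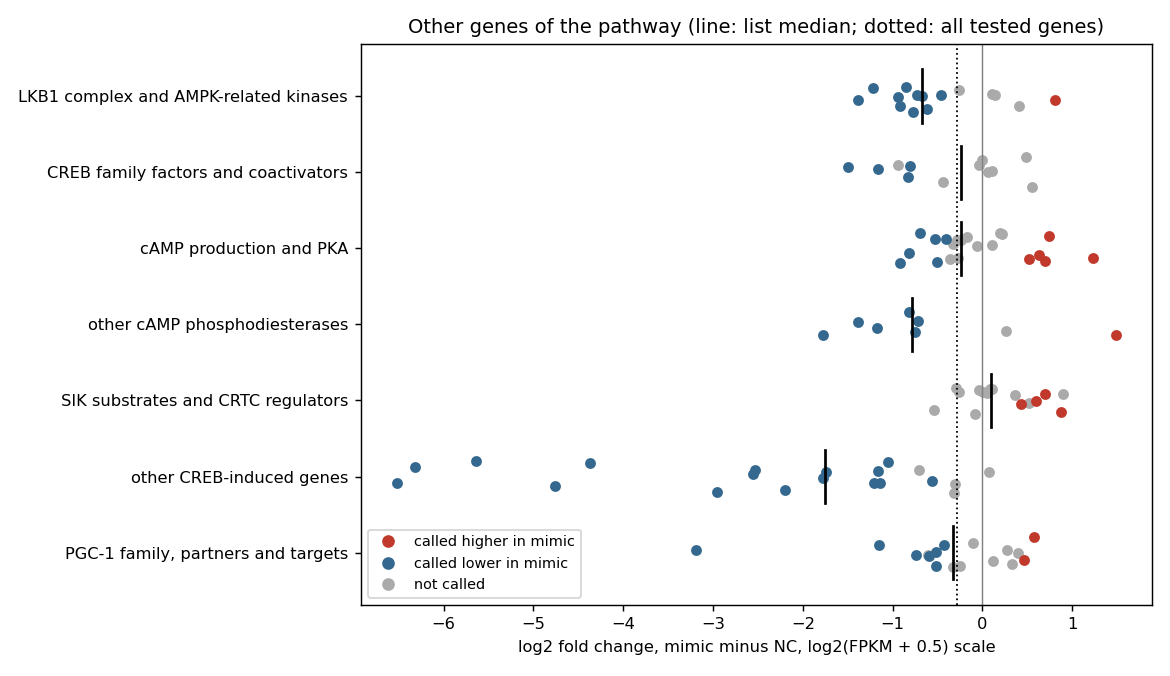
Log2 fold change, mimic minus NC, of every tested gene in the 7 lists (horizontal axis; 1 point per gene, spread vertically at random), red for called higher, blue for called lower and grey for not called; black lines are list medians and the dotted line is the median of all tested genes. The list of other CREB-induced genes has the lowest median, -1.76, and SIK substrates and CRTC regulators the highest, 0.10. Immediate early genes, which lead the CREB-induced list, were known to be low here before it was drawn up.

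Other genes known to be induced through CREB were lower in 16 of 20 tested members and higher in none (15 and 1 after median-of-ratios scaling, 13 and 1 after quantile normalization). Of all genes 39.6% were lower and 12.0% higher (27.4% and 26.9%, and 22.8% and 24.9%, on those scales). Its median was -1.76 on the log2 scale, against -0.29 over all genes. Immediate early genes lead this list and also answer to other signals, and they were known to be low here before the list was drawn up. FOSB, EGR1, FOS and ATF3 had the smallest p, with log2 fold changes of -6.52, -6.32, -5.64 and -4.76. The genes of hepatic glucose synthesis and amino acid breakdown in the list were not tested. PCK1 was at 0.00635, 0.0217 and 0 FPKM in mimic samples and 0.702, 0.401 and 0.363 FPKM in NC samples, G6PC1 was listed at 0 in all 6 samples, and TAT was under 0.1 FPKM in every sample. The full element was in a promoter window of 5 of the list's 21 genes with a window (AREG, DUSP1, PPP1R15A, SST and VGF), or 23.8%, against 2.25% of all genes with a window and 4.01% of tested genes with one. SST and VGF were not tested, and genes are in part known as CREB-induced because of this element.

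Of 17 tested partners and targets of PGC-1, 7 fell and 2 rose, while median-of-ratios scaling gave 3 and 4. As deposited these are close to the 39.6% and 12.0% of all genes. After median-of-ratios scaling 3 lower is below the 27.4% of all genes, and 26.9% of all genes were higher. Without NC sample 1 or NC sample 3 the higher count was 1. The median log2 fold change was -0.33, against -0.29 over all genes. PDK4, a kinase that restrains pyruvate oxidation, was at 17.9, 26.9 and 20.3 FPKM in mimic samples and 215.2, 182.4 and 203.2 FPKM in NC samples (-3.19, SE 0.17, limma adjusted p = 1.58e-05). LPIN1, a phosphatidate phosphatase and coactivator, fell by 1.16 (SE 0.20), and KAT2A, the acetylase that restrains PGC-1alpha, fell by 0.74 (SE 0.14). FOXO1, its partner at glucose synthesis genes, was called lower on the deposited scale (-0.59, SE 0.13, limma adjusted p = 0.00648) but not after median-of-ratios scaling or quantile normalization.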

How the data were processed

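Gene expression was measured by RNA sequencing in 6 samples, grouped by sample title; 1 µg of RNA went into each library. The authors deposited FPKM values, 1 per gene and sample, per the file headers. FastQC, HISAT2 and hg38 are named by the submitters' processing notes; the FPKM tool, strand setting and annotation: not given in the sources used here. Single-sample tables and the series table held identical values. Low values were checked for whole-read steps: 12.6% to 16.6% per sample were whole multiples of the commonest value of FPKM times length (within 1%, genes with 1 transcript), so reads were not recovered, depth is unknown, and no counting interval is given. A value of 0 means listed at 0.

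Symbols were matched by identifier (57392 matched; 57836 matched GENCODE 29). limma 3.58.1 in R 4.3.3 (trend, robust) was fitted to log2(FPKM + 0.5) for the 14439 genes averaging 1 FPKM or more, without covariates, with Benjamini-Hochberg adjustment at 0.05; the scale understates changes of low genes. The step was tested on simulated data. The members and lists were chosen with earlier results of these data known. Named genes are the members; up to 4 called genes with the smallest p per list; the 3 profiles nearest to the members with the lowest and highest fold change; and genes overlapping or copying a member.

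The alternatives were 2 other pseudocounts, 2 other filters, 3 other scalings, a replicate block, non-robust moderation and each sample left out; leaving out sample 3 of both groups and summing SIK1 with SIK1B were added after seeing the data.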

Additional observations from a re-analysis of the deposited data

How the results depend on the processing

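Over 16 alternative fits SIK1, PDE4D, PPARGC1A and CREB1 were called lower in each fit that tested them, SIK2 and SIK3 in none, CREM in 13 and CRTC3 in 7; CRTC2 was called higher in 3. The cause of the moves below was not tested. Over all genes, 8755 were lower with no filter on low values, 2916 among genes averaging 5 FPKM or more and 3289 after quantile normalization, against 5718; 3889 were higher after median-of-ratios scaling and 3592 after quantile normalization, against 1735. Leaving out 1 sample gave 4695 to 5732 lower and 1256 to 1822 higher.

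After median-of-ratios scaling 1 of the 10 genes was higher, and the lists gave 6 lower and 4 higher (LKB1 complex and AMPK-related kinases), 2 higher (CREB family), 2 lower (cAMP production and PKA), 2 higher (phosphodiesterases), 8 higher (SIK substrates), 1 higher (CREB-induced) and 3 lower and 4 higher (PGC-1). After quantile normalization these were 4 and 4 for LKB1, 2 higher for the CREB family, 2 lower and 8 higher for PKA, 2 higher for phosphodiesterases, 1 higher for CREB-induced genes, and 3 lower and 5 higher for PGC-1. Among genes averaging 5 FPKM or more 2 CREB family and 3 PKA genes were lower and 0 phosphodiesterases higher. With no filter 2 SIK substrates were higher. Leaving mitochondrial genes out of each total, 1 CREB family gene and 4 PGC-1 genes were higher. Without sample 3 of both groups 0 LKB1, 1 CREB family, 3 PKA, 2 SIK substrate and 1 PGC-1 genes were higher, and 4 PGC-1 genes lower.

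Correlations of deviations did not settle whether samples with the same number are paired. They were 0.177, -0.0467 and 0.223 for same numbers and -0.281 to 0.126 for different numbers. With the number as a replicate block 1 of the 10 genes (CRTC2) was higher, 2 CREB family genes were higher and 1 SIK substrate was lower.

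Leaving out 1 sample gave, lower and higher, 5 to 6 and 0 to 1 of the 10 genes, 7 to 9 and 1 to 2 LKB1, 4 to 5 and 0 to 1 CREB family, 2 to 6 and 2 to 5 PKA, 6 and 1 to 2 phosphodiesterases, 0 and 2 to 4 SIK substrates, 15 to 17 and 0 CREB-induced, and 5 to 7 and 1 to 3 PGC-1 genes. Depth is unknown, so precision at low FPKM cannot be stated.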
